A study of Mus musculus with 18 samples.

Results

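The keratin genes encode the intermediate filament proteins of epithelial cells, and their levels are described here in the vestibular organ of the mouse, which senses balance. The members were every gene whose symbol is Krt followed by digits only, so keratin-associated protein genes and symbols that end in a letter were not members. The platform annotation gave 48 such genes among the 19938 genes tested, each with 1 probe set that carried that symbol alone. Chromosome 11 held 25 members and chromosome 15 held 23, among them Krt18. Keratin type was assigned from the chromosome, with members on chromosome 11 and Krt18 as type I and the others as type II. This gave 26 type I and 22 type II keratins.

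Keratin filaments are obligate pairs of an acidic type I and a basic type II protein, and the pair a cell makes marks its kind of epithelium. Simple epithelia use Krt8 with Krt18, often with Krt7 or Krt19, basal cells of stratified epithelia use Krt5 with Krt14, and cells above the basal layer of epidermis use Krt1 with Krt10. Hair shafts and the inner root sheath that surrounds them use their own keratins. The membranous labyrinth is lined by simple epithelium, and its hair cells and supporting cells are known to contain simple keratins, mainly in the supporting cells.

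Of the 6 groups, 3 were Igf1 -/- (null) at E18.5, P15 and P90 and 3 were Igf1 +/+ (wild type) at the same ages, with 3 arrays in each group and 18 arrays in all. The deleted gene, Igf1, codes for the secreted hormone insulin-like growth factor 1, and all mice had a hybrid Mf1 and 129/sv background. The titles call the arrays of a group biological replicates. The labels do not say whether an array held 1 animal or a pool, or what sex the animals were. The free-text description of the P15 and P90 wild-type arrays reads Igf1 -/-, whereas their titles and genotype fields read Igf1 +/+, which was used here.

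Values are log units on the quantile-normalized scale, whose base is unstated. A step of 1 would be 2.72-fold for natural logs, or 2-fold for base 2. The array reads each gene with its own probes, so levels are compared between arrays and not between genes. A difference is written ± its standard error from limma, and a gene was called higher or lower at a Benjamini-Hochberg adjusted p under 0.05 over all 19938 genes. Quantile normalization sets all arrays to one distribution. With the deposited values in its place, the median of all genes lay at 0.25 (null) and 0.11 (wild type) for P15 minus E18.5, and at 0.39 (null) and 0.2 (wild type) for P90 minus P15, and null minus wild type at -0.15 at E18.5, -0.01 at P15 and 0.17 at P90, so each change below is relative to the other genes.

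The Igf1 probe set averaged 6.60, 5.55 and 5.42 log units in null arrays at E18.5, P15 and P90, against 7.03, 5.96 and 5.52 in wild-type arrays, and none of the 3 genotype differences was called. No source used here places its probes relative to the deletion, so the gene cannot serve as a check of the genotype labels. Of the defining vestibular markers, Myo7a, a myosin of hair cells, stood at 4.32 to 5.14 in the 18 arrays. Oc90, the main otoconial protein, stood at 8.33 to 8.56 in all E18.5 arrays, at 3.74 to 4.88 in P15 arrays and at 3.51 to 3.96 in P90 arrays. The third principal component set 4 arrays apart, namely null 2 and 3 of E18.5 with wild type 1 and 2 of P90, at scores of 13.46 to 18.82. The other 14 arrays ran from -25.01 to 9.92. The P90 null arrays (-25.01, -15.39 and -12.53) and P90 wild type 3 (-12) lay at the opposite end. At P90, Xist was 7.42 to 7.91 in null arrays and 1.86 to 3.33 in wild-type arrays. A sex-linked signal thus moved with genotype at that age. It also moved with age in wild-type mice, whose P15 arrays had Xist at 7.48, 5.34 and 7.48. Their P90 minus P15 difference of Xist was called lower (-4.08 ± 0.80, adjusted p = 0.0041). The Y-linked Eif2s3y was 1.75, 5.78 and 5.90 in P90 null arrays and 6.57 to 6.83 in P90 wild-type arrays. P90 null 1 thus had a low Y-linked signal, while P90 null 2 and 3 read both signals. All E18.5 arrays also read both, with Xist at 7.31 to 8.01 and Eif2s3y at 5.35 to 6.10. The P15 null arrays differed among themselves, with Xist at 7.61, 8.09 and 4.09 and Eif2s3y at 6.11, 3.30 and 6.59. Arrays that read both most likely held RNA of more than 1 animal. In such bulk samples, fewer cells of a type and less RNA per cell cannot be told apart.

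The array files carry no detection call, and the olfactory receptor genes, which are mostly silent outside the nose, served as a guide to dim genes. The 95th percentile of their 1027 means over all 18 arrays was 3.54, and 22.1% of all genes had every group mean below it. Genes were judged by their highest group mean, which is more lenient than a mean over all arrays. Krt23, Krt31, Krt34 and Krt78, for example, had highest group means of 3.58 to 3.63 and means over all arrays of 3.29 to 3.42. Among keratins, 25 exceeded the guide in at least 1 group and 23 did not. The brighter ones were 5 of 6 simple epithelial, all 3 basal, 4 of 6 suprabasal, 1 of 5 mucosal and corneal, 3 of 4 activation or appendage and 5 of 12 hair cortex and cuticle keratins, and 4 that belong to none of these roles. None of the 8 inner root sheath keratins exceeded it. Differences among the 23 dim members carry more doubt.

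**Figure D1:**
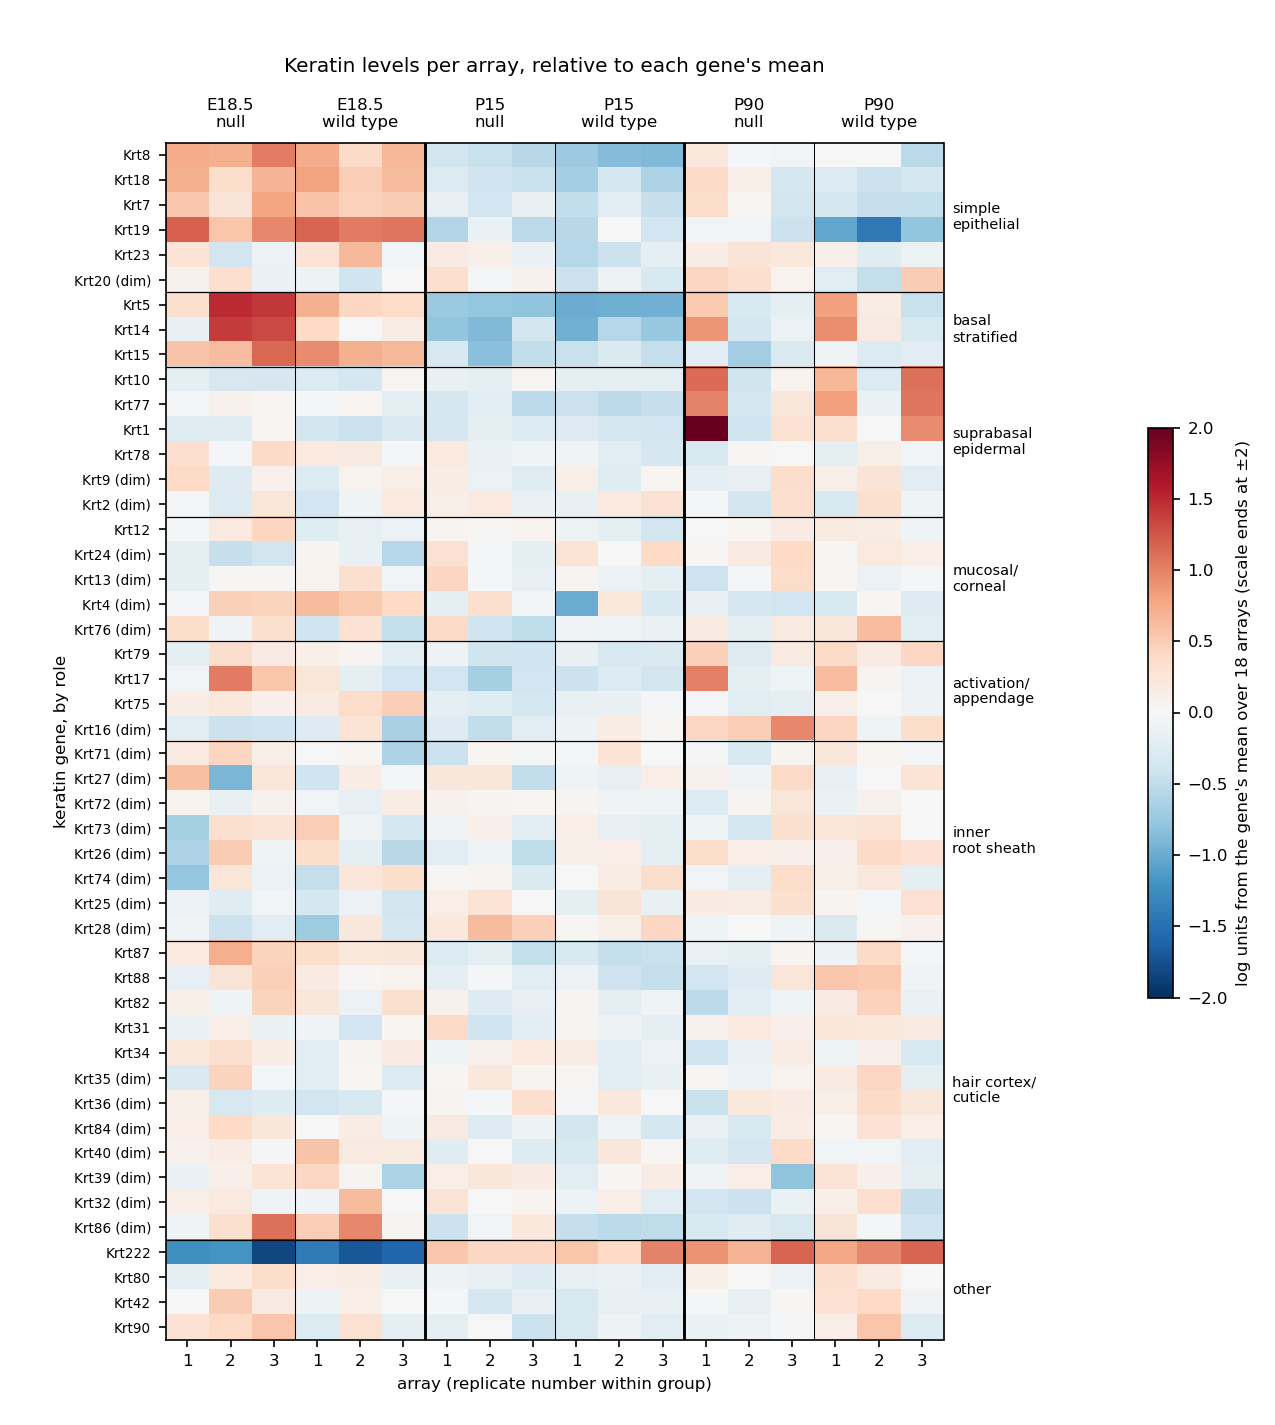
Level of each of the 48 keratin genes (down the page, by role) in each of the 18 arrays (across, null left of wild type at each age), as log units from the gene's own mean, with red higher and blue lower. Krt8, Krt18, Krt7, Krt19 and the 3 basal keratins were high at E18.5 and low at P15, Krt222 ran the other way, Krt1, Krt10 and Krt77 were high in single P90 arrays, and genes marked dim stayed below the guide.

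Age moved the keratins more than genotype did in the count of calls. For P15 minus E18.5, 14 of 48 keratins were called in null mice (2 higher and 12 lower), where 40.8% of all genes were called (20.3% higher and 20.5% lower). In wild-type mice 13 of 48 were called (2 higher and 11 lower), where 41.5% of all genes were (19.7% higher and 21.9% lower). The median keratin difference was -0.21 in null and -0.18 in wild-type mice, against -0.04 and -0.05 over all genes. With the deposited values the null calls were 5 higher and 7 lower. For P90 minus P15, 2 keratins were called in null mice, both higher, beside 13% of all genes (6.12% higher and 6.83% lower), and 8 in wild-type mice (7 higher and 1 lower), beside 17.9% (8.08% higher and 9.78% lower). Of the 25 keratins above the dim guide, 13 (52%) were called from E18.5 to P15 in null mice and 10 (40%) in wild-type mice. These 25 passed through their highest group mean, so their shares are not set against those of all genes. For P90 minus P15 the median over all 48 keratins was 0.13 in null and 0.23 in wild-type mice, against 0.02 and 0.01 over all genes. The wild-type P90 count depended on the scaling, with 34 higher and 0 lower in the deposited values and 21 higher and 1 lower with array medians subtracted. Arrays of P15 and E18.5 did not overlap for 18 keratins in null mice (4 higher and 14 lower), beside 51% of all genes, and for 17 in wild-type mice (1 higher and 16 lower), beside 57.7%. Arrays of P90 and P15 did not overlap for 10 keratins in null mice (8 higher and 2 lower), beside 31.8% of all genes, and for 17 in wild-type mice (16 higher and 1 lower), beside 34%. Both age comparisons share the P15 arrays of their genotype.

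Counted by the age of their highest group, 24 keratins peaked at E18.5, 6 at P15 and 18 at P90, and of the 25 above the dim guide 16 peaked at E18.5, 0 at P15 and 9 at P90. A gene passed the guide through the same group in which it peaked, which shapes the counts of these 25. Peak ages were not counted over all genes, so these counts describe the members only. Type II keratins made up all 7 of the wild-type P90 rises, with a median difference of 0.33 over the 22 of them. The 26 type I keratins had 1 call, lower, and a median of 0.21, beside 8.08% of all genes called higher and 9.78% lower. Both medians were above 0, and the split by type was not recounted under the other scalings, on which the wild-type P90 count depended. For P15 minus E18.5 the 22 type II keratins had 0 calls higher and 6 lower in null mice and 0 higher and 7 lower in wild-type mice. The 26 type I keratins had 2 higher and 6 lower in null mice and 2 higher and 4 lower in wild-type mice. Over all genes, 20.3% were called higher and 20.5% lower in null mice, and 19.7% and 21.9% in wild-type mice.

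**Figure D2:**
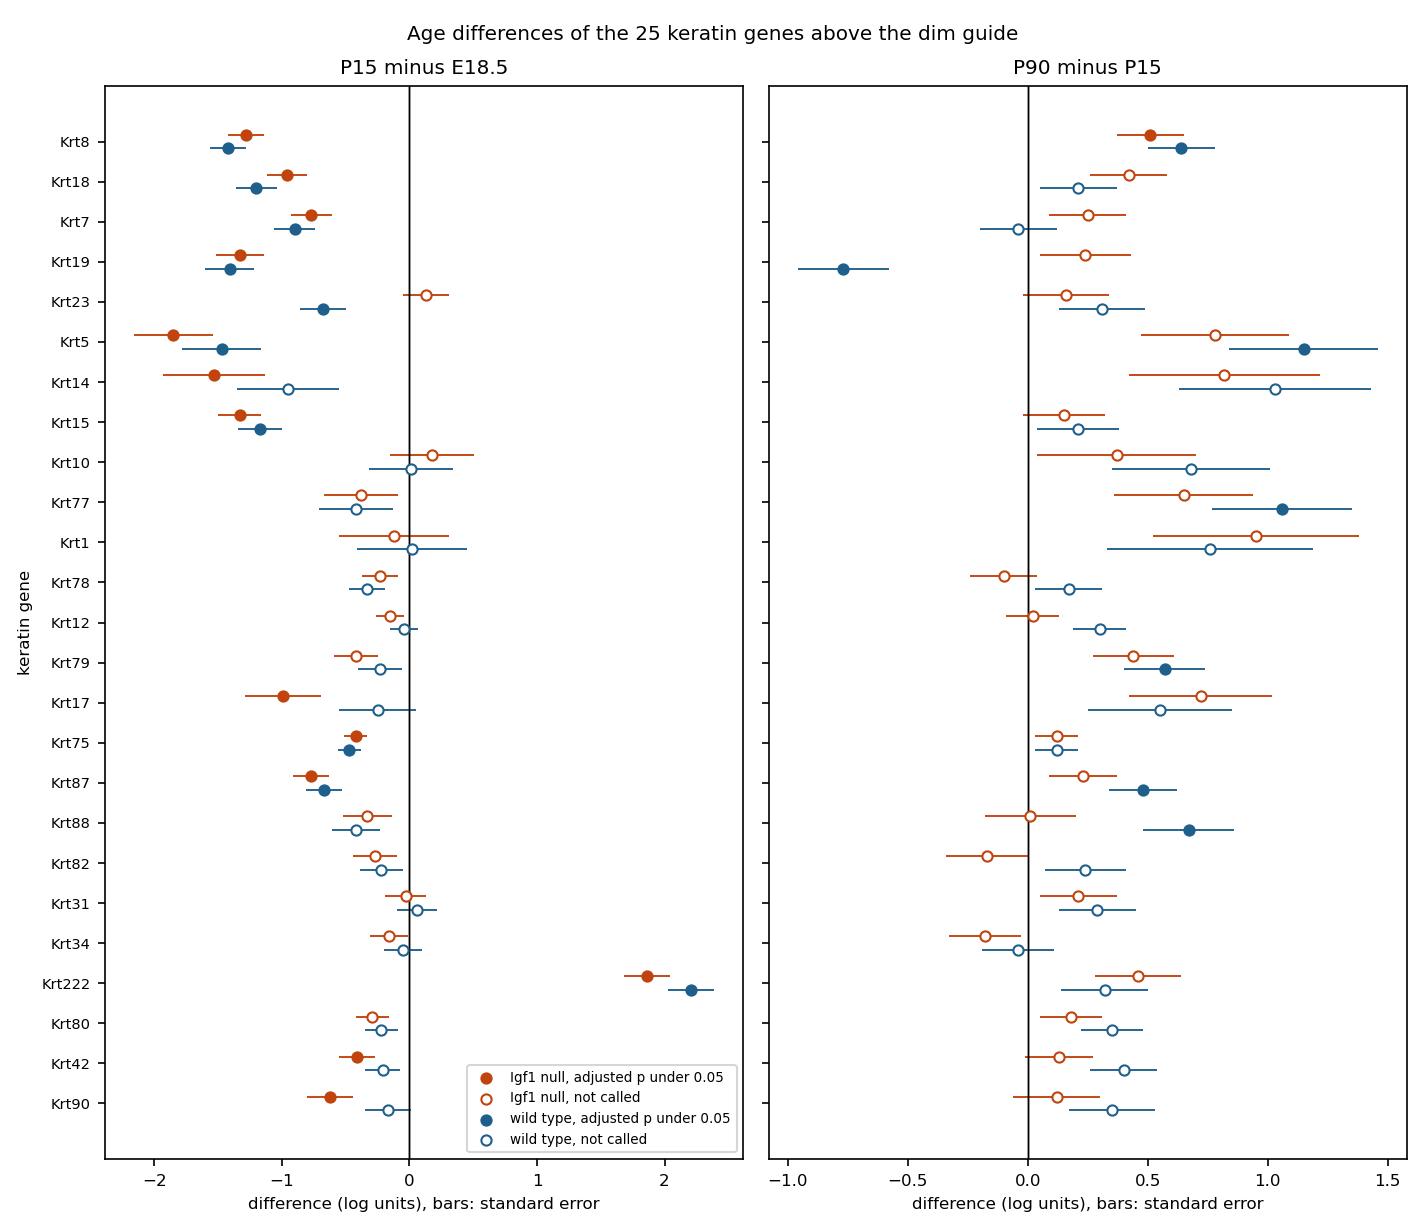
Age differences in log units (horizontal axis, points with standard errors) of the 25 keratin genes above the dim guide, P15 minus E18.5 on the left and P90 minus P15 on the right, null above wild type for each gene and filled circles for an adjusted p under 0.05. Krt8, Krt18, Krt7, Krt19 and the 3 basal keratins lie left of 0 on the left, Krt222 lies at 1.86 and 2.21, and most points on the right lie above 0 with fewer calls in null than in wild-type mice.

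Of the 6 simple epithelial keratins, 4 fell between E18.5 and P15 in null mice and 5 in wild-type mice, and none rose. Krt8, the type II keratin of simple epithelia and among the earliest keratins of the embryo, measured 5.93, 5.91 and 6.21 in null arrays and 5.93, 5.57 and 5.86 in wild-type arrays at E18.5. At P15 it measured 4.82, 4.74 and 4.63 in null arrays and 4.47, 4.33 and 4.31 in wild-type arrays. At P90 it measured 5.41, 5.17 and 5.14 in null arrays and 5.19, 5.19 and 4.65 in wild-type arrays. No P15 array reached the lowest array of either other age of its genotype, so the level was lowest at the middle age. Krt8 fell by 1.28 ± 0.14 in null mice (adjusted p = 3.2e-06) and by 1.42 ± 0.14 in wild-type mice (adjusted p = 1e-06) from E18.5 to P15. These are ratios of 0.277 (null) and 0.243 (wild type) for natural logs, or of 0.411 (null) and 0.375 (wild type) for base 2. From P15 to P90 it rose by 0.51 ± 0.14 in null mice (adjusted p = 0.029) and by 0.64 ± 0.14 in wild-type mice (adjusted p = 0.0082). The null rise lost its call without P15 null 2 or 3 or P90 null 1 or 2 (adjusted p 0.05 to 0.11), while the wild-type rise kept its call without any single array but not with the 4 arrays that stand apart left out (0.28, adjusted p = 0.37).

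Krt18, the type I partner of Krt8 and its neighbour on chromosome 15, measured 5.52, 5.16 and 5.49 in null arrays and 5.61, 5.30 and 5.43 in wild-type arrays at E18.5. At P15 it was 4.53, 4.41 and 4.36 in null arrays and 4.12, 4.45 and 4.18 in wild-type arrays. At P90 it was 5.19, 4.92 and 4.45 in null arrays and 4.53, 4.38 and 4.46 in wild-type arrays. All postnatal wild-type arrays lay below all E18.5 arrays, and the P90 null arrays spread widely. P15 minus E18.5 was -0.96 ± 0.16 in null mice (adjusted p = 1.5e-04) and -1.20 ± 0.16 in wild-type mice (adjusted p = 1.6e-05), whereas P90 minus P15 was 0.42 ± 0.16 in null and 0.21 ± 0.16 in wild-type mice, neither called (adjusted p 0.097 and 0.38).

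Krt7, a type II keratin of glandular and ductal simple epithelia, measured 5.05, 4.78 and 5.31 in null arrays and 5.08, 4.98 and 5.02 in wild-type arrays at E18.5. At P15 it had 4.35, 4.13 and 4.37 in null arrays and 4.02, 4.30 and 4.06 in wild-type arrays. At P90 it had 4.89, 4.56 and 4.15 in null arrays and 4.16, 4.06 and 4.04 in wild-type arrays. As for Krt18, P90 null 1 stood high and P90 null 3 lay at or below the highest wild-type array. P15 minus E18.5 was -0.77 ± 0.16 in null mice (adjusted p = 0.0011) and -0.90 ± 0.16 in wild-type mice (adjusted p = 2.6e-04), and P90 minus P15 was 0.25 ± 0.16 in null and -0.04 ± 0.16 in wild-type mice, neither called.

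Krt19, a type I simple keratin without a tail domain, measured 5.63, 4.99 and 5.40 in null arrays and 5.60, 5.47 and 5.51 in wild-type arrays at E18.5. At P15 it measured 3.84, 4.30 and 3.89 in null arrays and 3.88, 4.43 and 4.05 in wild-type arrays. At P90 it measured 4.37, 4.37 and 4.01 in null arrays and 3.39, 3.01 and 3.64 in wild-type arrays. The genotypes overlapped at E18.5 and P15 and did not overlap at P90. P15 minus E18.5 was -1.33 ± 0.19 in null mice (adjusted p = 5.2e-05) and -1.41 ± 0.19 in wild-type mice (adjusted p = 2.6e-05). Krt19 was the single keratin that fell from P15 to P90 in wild-type mice (-0.77 ± 0.19, adjusted p = 0.016), and its null difference was 0.24 ± 0.19 and was not called. The wild-type P90 call was lost without P15 wild type 2 (-0.62, adjusted p = 0.085) or P90 wild type 2 (-0.60, adjusted p = 0.086), and with the deposited values (-0.36, adjusted p = 0.24). It was also lost with the sex signal of each array as a covariate (-0.68, adjusted p = 0.14). A term for the 4 arrays that stand apart removed it as well (-0.48, adjusted p = 0.19), and with those arrays left out the difference was -0.47.

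The remaining simple keratins were dimmer. Krt23 ran from 2.90 to 3.56 at E18.5, 3.16 to 3.45 at P15 and 3.44 to 3.55 at P90 in null arrays, and from 3.23 to 3.94, 2.72 to 3.11 and 3.05 to 3.39 in wild-type arrays. It fell from E18.5 to P15 in wild-type mice (-0.68 ± 0.18, adjusted p = 0.0062), a call that was lost with the deposited values (adjusted p = 0.059). Krt20, a keratin of gut epithelium and Merkel cells, stayed below the dim guide, and neither genotype had an age call for it. Of 12 marker genes of supporting cells and otoconial epithelium, 10 fell and 1 rose from E18.5 to P15 in null mice, and 9 fell and 1 rose in wild-type mice, the riser being Cdkn1b, a cell cycle inhibitor, in both. Their mean per array ran from 5.68 to 5.97 at E18.5 and 4.72 to 4.8 at P15 in null arrays, and from 5.77 to 5.94 and 4.48 to 4.78 in wild-type arrays. The part of these markers in the keratin differences was not tested.

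The 250 bases upstream of the transcription start are shown for Krt8, Krt18 and Krt7 because all 3 fell from E18.5 to P15. The windows come from RefSeq on GRCm38.p6, at chr15:102004343-102004592 on the minus strand for Krt8, chr15:102027966-102028215 on the plus strand for Krt18 and chr15:101412153-101412402 on the plus strand for Krt7. Each is written 5′ to 3′ and ends at the base before the start, and capitals mark GGGCGG on either strand, the core of the GC box.
Krt8: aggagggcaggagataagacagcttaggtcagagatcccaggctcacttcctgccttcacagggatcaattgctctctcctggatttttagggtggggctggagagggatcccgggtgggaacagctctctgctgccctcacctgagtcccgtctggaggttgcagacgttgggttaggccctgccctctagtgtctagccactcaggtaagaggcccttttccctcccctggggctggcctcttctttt
Krt18: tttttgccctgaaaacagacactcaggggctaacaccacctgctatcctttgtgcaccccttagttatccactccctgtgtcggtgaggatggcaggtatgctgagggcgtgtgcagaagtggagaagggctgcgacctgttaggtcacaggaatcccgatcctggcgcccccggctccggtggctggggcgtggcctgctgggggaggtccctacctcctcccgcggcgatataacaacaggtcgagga
Krt7: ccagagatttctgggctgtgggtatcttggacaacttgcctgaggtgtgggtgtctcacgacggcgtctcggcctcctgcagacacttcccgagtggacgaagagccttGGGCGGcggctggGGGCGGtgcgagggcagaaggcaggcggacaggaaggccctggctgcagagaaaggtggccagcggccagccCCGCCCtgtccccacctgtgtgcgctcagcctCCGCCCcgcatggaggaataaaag
GGGCGG was found 4 times in the Krt7 window, beginning at positions -141, -128, -56 and -24 from the start, and not in the Krt8 or Krt18 window. TATAAA, the core of the TATA box, was in none of the 3 windows. These matches describe the letters only.

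**Figure D3:**
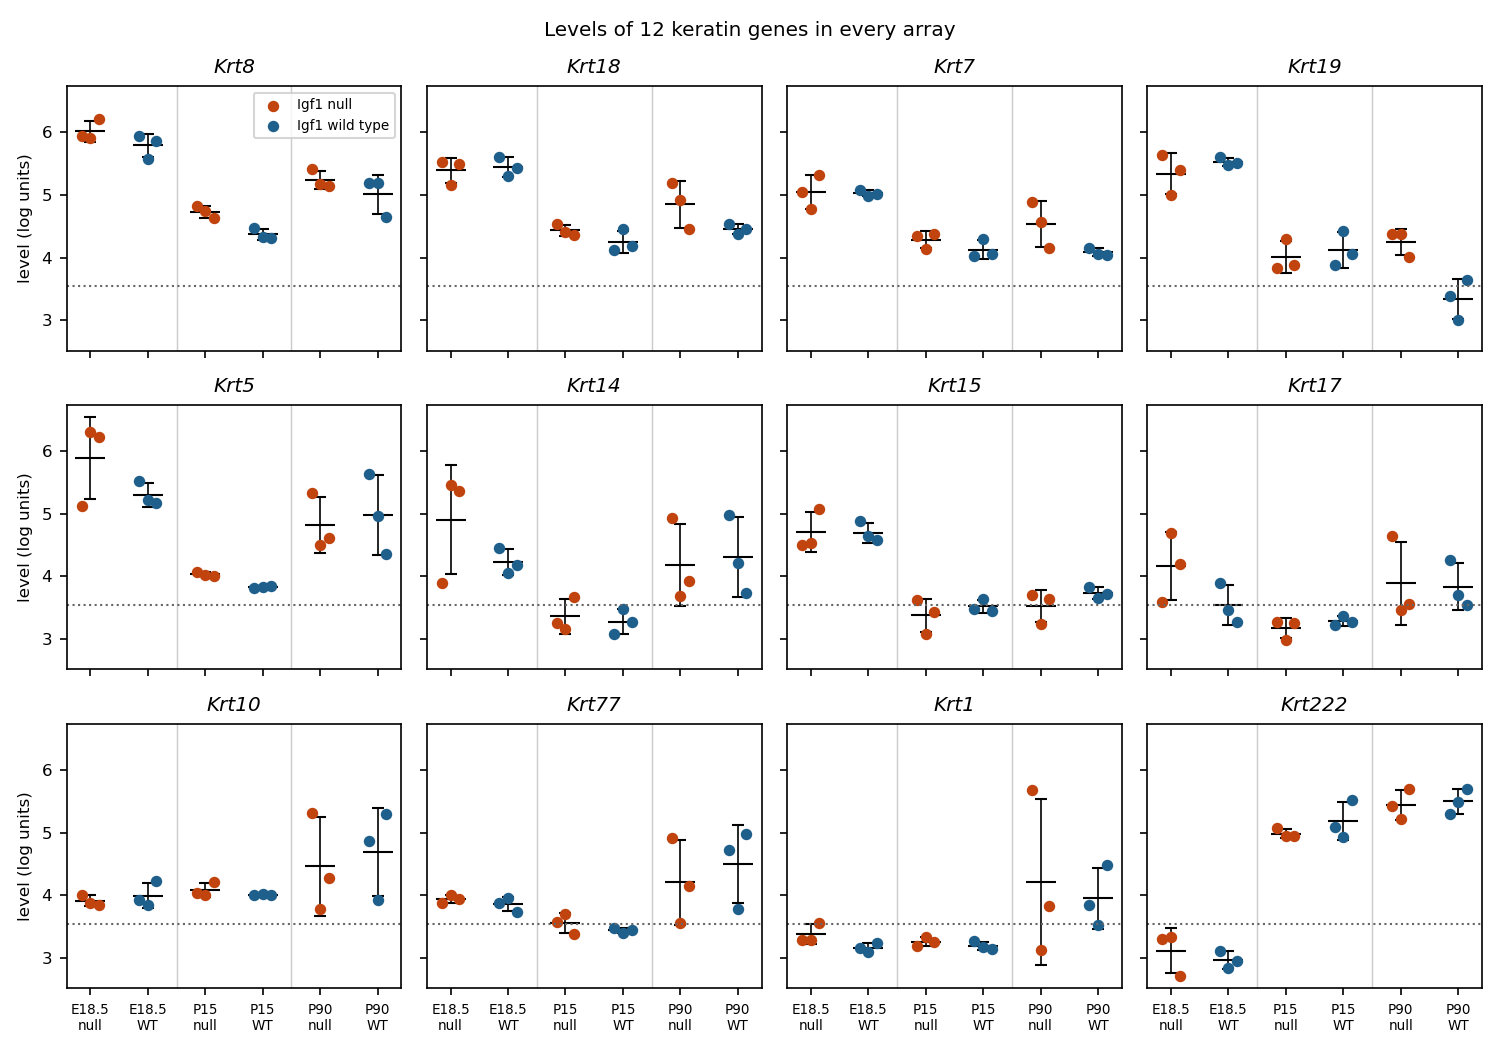
Level in log units (vertical axis) of 12 keratin genes in every array, in 6 groups by age with null (orange) left of wild type (blue), with group mean and standard deviation as black bars and the dim guide dotted. Krt8, Krt18, Krt7 and Krt19 were high at E18.5, Krt222 was high from P15 on, and Krt5, Krt14, Krt17, Krt10, Krt77 and Krt1 differed between arrays of 1 group.

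All 3 basal keratins fell from E18.5 to P15 in null mice, and 2 of 3 did in wild-type mice. Krt5, the type II keratin of basal cells, measured 5.13, 6.30 and 6.23 in null arrays and 5.52, 5.22 and 5.17 in wild-type arrays at E18.5. At P15 the values were 4.07, 4.03 and 4.01 in null arrays and 3.82, 3.83 and 3.85 in wild-type arrays. At P90 they were 5.33, 4.50 and 4.62 in null arrays and 5.63, 4.96 and 4.36 in wild-type arrays. The P15 arrays lay within 0.1 units of each other in each genotype, while E18.5 null and P90 arrays differed by more than 0.8 within a group. P15 minus E18.5 was -1.85 ± 0.31 in null mice (adjusted p = 2.1e-04) and -1.47 ± 0.31 in wild-type mice (adjusted p = 0.0013). P90 minus P15 was 0.78 ± 0.31 in null mice, not called, and 1.15 ± 0.31 in wild-type mice (adjusted p = 0.022). That wild-type rise lost its call without P15 wild type 1 or 2 or P90 wild type 1 or 2 (adjusted p 0.054 to 0.095). The call was also lost with a term for the 4 arrays that stand apart (0.46, adjusted p = 0.28), and with those arrays left out the rise was 0.53.

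Krt14, the type I partner of Krt5, measured 3.9, 5.45 and 5.36 in null arrays and 4.45, 4.05 and 4.19 in wild-type arrays at E18.5. Its P15 values were 3.26, 3.16 and 3.68 in null arrays and 3.08, 3.48 and 3.28 in wild-type arrays. Its P90 values were 4.93, 3.69 and 3.93 in null arrays and 4.98, 4.22 and 3.73 in wild-type arrays. Krt14 was high in the same arrays as Krt5, namely E18.5 null 2 and 3, P90 null 1 and P90 wild type 1. It fell from E18.5 to P15 in null mice (-1.53 ± 0.40, adjusted p = 0.0059), which rested on the arrays that stand apart: with the 4 left out it was -0.53 (adjusted p = 0.35). In wild-type mice the difference was -0.95 ± 0.40 and was not called (adjusted p = 0.068).

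Krt15, a type I keratin of basal cells and hair follicle stem cells, measured 4.50, 4.54 and 5.08 in null arrays and 4.88, 4.64 and 4.58 in wild-type arrays at E18.5. P15 arrays had 3.62, 3.09 and 3.43 (null) and 3.48, 3.64 and 3.45 (wild type). P90 arrays had 3.70, 3.24 and 3.64 (null) and 3.84, 3.65 and 3.72 (wild type). P90 null 1 and P90 wild type 1 were the highest Krt15 arrays of their groups, by 0.17 and 0.11 over the group means, and every postnatal array lay below every E18.5 array. P15 minus E18.5 was -1.33 ± 0.17 in null mice (adjusted p = 1.2e-05) and -1.17 ± 0.17 in wild-type mice (adjusted p = 3.5e-05), and neither genotype had a call from P15 to P90.

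The Krt5 window is shown as that of the basal keratin whose group means ranged most widely, by 2.05 units. It lies at chr15:101712906-101713155 on the minus strand, 5′ to 3′, and it held none of the motifs searched.
Krt5: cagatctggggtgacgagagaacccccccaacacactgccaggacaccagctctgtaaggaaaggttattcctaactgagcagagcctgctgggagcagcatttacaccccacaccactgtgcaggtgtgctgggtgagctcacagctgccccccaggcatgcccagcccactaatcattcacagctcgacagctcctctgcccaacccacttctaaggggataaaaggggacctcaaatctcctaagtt

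The suprabasal epidermal keratins had no call from E18.5 to P15, and Krt77 was the 1 of 6 called from P15 to P90, higher in wild-type mice. Krt77, a type II keratin close to Krt1, measured 3.87, 4.00 and 3.94 in null arrays and 3.87, 3.96 and 3.74 in wild-type arrays at E18.5. At P15 its arrays read 3.58, 3.70 and 3.39 in null mice and 3.48, 3.40 and 3.45 in wild-type mice. At P90 its arrays read 4.91, 3.56 and 4.15 in null mice and 4.73, 3.79 and 4.98 in wild-type mice. P90 null 1 and P90 wild type 1 and 3 were high, while P90 null 2 lay within the P15 range. P90 minus P15 was 0.65 ± 0.29 in null mice, not called, and 1.06 ± 0.29 in wild-type mice (adjusted p = 0.022), a call that was lost without P15 wild type 2 or P90 wild type 1 or 3 (adjusted p 0.061 to 0.075).

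Krt10 and Krt1, the pair of the spinous layer, were both highest in P90 null 1 and P90 wild type 3 of their groups, and P90 wild type 1 was above its group mean for Krt10 but not for Krt1. Krt10 measured 5.32, 3.79 and 4.27 in P90 null arrays and 4.86, 3.92 and 5.29 in P90 wild-type arrays, and its 12 other arrays lay between 3.84 and 4.23. Krt1 measured 5.68, 3.13 and 3.83 in P90 null arrays and 3.85, 3.53 and 4.48 in P90 wild-type arrays, and its 12 other arrays lay between 3.10 and 3.56. Neither gene was called with age in either genotype. The spread within groups of Krt1 lay at the 99.7th percentile of all genes, that of Krt10 at the 98.5th and that of Krt77 at the 96.7th. Among basal and appendage keratins, Krt14 lay at the 99.5th percentile, Krt5 at the 98.1st and Krt17 at the 97.7th, whereas Krt8 lay at the 58.5th. Krt78 was above the dim guide and Krt9 and Krt2 below it, and none of these 3 had a call.

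Genes of stratified epithelium also differed between P90 arrays of a group. Krtdap, a gene of differentiating epidermis, measured 5.02, 2.15 and 2.85 in P90 null arrays and 3.99, 2.28 and 4.46 in P90 wild-type arrays. Lor, which encodes loricrin, measured 3.67, 1.66 and 2.48 in null arrays and 2.66, 2.25 and 3.81 in wild-type arrays of that age. Dsc3, a desmosomal cadherin of stratified epithelium, measured 4.19, 1.98 and 2.72 in null arrays and 3.74, 2.99 and 3.55 in wild-type arrays. P90 null 1 was the highest null array and P90 null 2 the lowest for all 3 genes. The mean of the 30 measured cornified envelope genes was 3.27 to 3.79 in P90 null arrays and 3.45 to 3.70 in P90 wild-type arrays, against 3.18 to 3.32 and 3.12 to 3.25 at P15. Krtdap and Lor were chosen after their values were seen, and the part of these genes in the suprabasal keratin values was not tested.

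The Krt10 window at chr11:99389365-99389614 on the minus strand, 5′ to 3′, is shown because it carries TATAAA (capitals), beginning at position -26 from the start.
Krt10: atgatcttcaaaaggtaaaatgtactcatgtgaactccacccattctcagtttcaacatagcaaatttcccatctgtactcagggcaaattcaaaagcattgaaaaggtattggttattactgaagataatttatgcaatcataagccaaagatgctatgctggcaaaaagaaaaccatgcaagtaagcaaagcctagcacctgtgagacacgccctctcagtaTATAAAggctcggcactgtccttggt
Among the 35 keratins with a window in the RefSeq table, 16 (45.7%) held TATAAA in these 250 bases on either strand, against 13% of all 27025 genes with a window. In 13 keratins it began between positions -40 and -20. It was in 4 of 17 windows of keratins above the dim guide and in 12 of 18 windows of keratins below it. GGGCGG was in 2 keratin windows (5.71%), those of Krt7 and Krt75, against 32.9% of all genes, and TGANTCA, the AP-1 core, which reads the same on both strands, was in 1 (2.86%), that of Krt13, against 6.87%. No motif overlapped another in the windows shown. No match here shows use of a site.

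Activation and appendage keratins split between the early and late ages. Krt17, a type I keratin of hair follicles and healing epidermis, measured 3.60, 4.69 and 4.20 in E18.5 null arrays and 3.89, 3.47 and 3.27 in E18.5 wild-type arrays. At P90 Krt17 measured 4.65, 3.46 and 3.56 in null arrays and 4.27, 3.71 and 3.54 in wild-type arrays, while its P15 arrays lay between 2.99 and 3.37. It fell from E18.5 to P15 in null mice (-0.99 ± 0.30, adjusted p = 0.016), and the call was lost without E18.5 null 2 (adjusted p = 0.086), without P15 null 2 (adjusted p = 0.058) and with the deposited values (adjusted p = 0.088). The call was also lost with a term for the 4 arrays that stand apart (-0.56, adjusted p = 0.22), and with those arrays left out the difference was -0.43. Krt75, a keratin of the companion layer of the follicle, fell in both genotypes, by 0.42 ± 0.09 in null mice (adjusted p = 0.0012) and by 0.47 ± 0.09 in wild-type mice (adjusted p = 4.7e-04), and both calls were lost with the deposited values (-0.15 and -0.28). Krt16, induced with Krt6 in activated epidermis, rose from P15 to P90 in null mice, where P90 arrays measured 2.32, 2.40 and 2.87 and P15 arrays 1.64, 1.41 and 1.67 (0.96 ± 0.20, adjusted p = 0.0064), all below the dim guide. Krt79, a keratin of the follicle opening, rose in wild-type mice (0.57 ± 0.17, adjusted p = 0.03), a call that was lost without P15 wild type 2 or 3 or any 1 of the P90 wild-type arrays (adjusted p 0.055 to 0.1).

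Mucosal and corneal keratins had 0 calls in null mice and 2 in wild-type mice, both from E18.5 to P15. Krt4, a type II keratin of wet stratified epithelium, fell (-0.89 ± 0.23, adjusted p = 0.0061), with P15 wild-type arrays at 1.93, 3.14 and 2.63 and E18.5 arrays at 3.56, 3.46 and 3.33. Without P15 wild type 1 the difference of Krt4 was -0.57. Krt24 rose (0.44 ± 0.16, adjusted p = 0.039), although its arrays overlapped between these ages, and the call was lost without E18.5 wild type 2 or 3 or P15 wild type 1 or 3 (adjusted p 0.059 to 0.2). Both stayed below the dim guide, as did Krt13, the mucosal partner of Krt4, and Krt76. Krt12, the corneal type I keratin, was the one member of this role above the guide, at 3.18 to 3.97 over the 18 arrays.

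The hair cortex and cuticle role held 12 keratins and the inner root sheath role 8. In null mice, 1 hair keratin fell and 1 inner root sheath keratin rose from E18.5 to P15. Over all genes, 20.5% were called lower and 20.3% higher there. None of these keratins was called from P15 to P90 in null mice, beside 13% of all genes. In wild-type mice, 2 hair keratins fell from E18.5 to P15, beside 21.9% of all genes called lower. From P15 to P90, 3 of the 12 hair keratins (25%) rose in wild-type mice, beside 8.08% of all genes called higher. No inner root sheath keratin was called in wild-type mice. Krt87 fell in both genotypes from E18.5 to P15, by 0.77 ± 0.14 in null mice (adjusted p = 3.6e-04) and by 0.67 ± 0.14 in wild-type mice (adjusted p = 0.0011), and neither call held with the deposited values (adjusted p 0.068 and 0.056). Its arrays ran from 4.33 to 4.87 at E18.5 and 3.67 to 3.95 at P15 in null mice, and from 4.35 to 4.49 and 3.67 to 3.83 in wild-type mice. Krt86, a hair cortex keratin below the dim guide, fell in wild-type mice (-1.0 ± 0.27, adjusted p = 0.0067). Krt28 of the inner root sheath, also dim, rose in null mice (0.68 ± 0.19, adjusted p = 0.011) and lost its call without P15 null 2 (0.57, adjusted p = 0.05).

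The 3 wild-type rises from P15 to P90 were Krt87 (0.48 ± 0.14, adjusted p = 0.028), Krt88 (0.67 ± 0.19, adjusted p = 0.029) and Krt84 (0.42 ± 0.13, adjusted p = 0.043). Krt88 measured 4.44, 4.41 and 3.81 in P90 wild-type arrays and 3.77, 3.47 and 3.41 in P15 wild-type arrays, so P90 wild type 3 lay close to the P15 range. The call of Krt87 was lost without P15 wild type 2 or 3 or P90 wild type 2 (adjusted p 0.067 to 0.14), that of Krt88 without P15 wild type 2 or 3 or P90 wild type 1 or 2 (adjusted p 0.085 to 0.13), and that of Krt84 without any 1 of the 6 arrays (adjusted p 0.05 to 0.17). Over all 48 keratins the wild-type P90 count was 1 without P15 wild type 2, 4 without P15 wild type 3, 3 without P90 wild type 1 and 3 without P90 wild type 2, and it was 0 with the 4 arrays that stand apart left out. The null count was 1 without P15 null 2, P15 null 3 or P90 null 1 and 4 without P90 null 2.

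Krt222, a keratin-like gene of the type I cluster, was the 1 keratin that rose in both genotypes from E18.5 to P15. It measured 3.31, 3.34 and 2.71 in null arrays and 3.12, 2.84 and 2.95 in wild-type arrays at E18.5. P15 gave 5.07, 4.94 and 4.94 in null arrays and 5.09, 4.93 and 5.52 in wild-type arrays. P90 gave 5.43, 5.21 and 5.69 in null arrays and 5.30, 5.49 and 5.70 in wild-type arrays. All E18.5 arrays lay below the dim guide and all postnatal arrays well above it, with the genotypes overlapping at each age. P15 minus E18.5 was 1.86 ± 0.18 in null mice (adjusted p = 8.6e-07) and 2.21 ± 0.18 in wild-type mice (adjusted p = 1.3e-07), and no fold is given because the E18.5 level lay below the guide. P90 minus P15 was 0.46 ± 0.18 in null and 0.32 ± 0.18 in wild-type mice, neither called. Over the same interval Mog, a myelin marker, ran from 2.98 to 3.61 at E18.5 and 4.8 to 5.14 at P15 in null arrays, and from 3.14 to 3.59 and 4.97 to 5.67 in wild-type arrays, and its part in the Krt222 difference was not tested. Of the other 3 members without a listed role, Krt42 (-0.41 ± 0.14, adjusted p = 0.025) and Krt90 (-0.62 ± 0.18, adjusted p = 0.012) fell in null mice. Krt42 lost its call without E18.5 null 2 or P15 null 2 or 3 (adjusted p 0.055 to 0.13), and Krt90 without E18.5 null 3 or P15 null 3 (adjusted p 0.052 and 0.062). Neither call held with the deposited values, where Krt42 was at -0.10 (adjusted p = 0.74) and Krt90 at -0.33 (adjusted p = 0.25). Krt80 had no call.

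Between the genotypes, limma called none of the 48 keratins at E18.5, P15 or P90, or for the mean of the 3 differences. The called share of all genes at E18.5 was 0.0802% (higher in null for 0.0602%, lower for 0.0201%). At P15 it was 0.015% (all of it higher in null), at P90 0.296% (higher for 0.241%, lower for 0.0552%), and for the mean 0.0351% (higher for 0.0201%, lower for 0.015%). At an unadjusted p under 0.05 there were 4 keratins at E18.5 (8.33%, beside 12.5% of all genes), 3 at P15 (6.25%, beside 6.97%), 5 at P90 (10.4%, beside 11.1%) and 5 for the mean (10.4%, beside 7.68%). The median keratin difference, null minus wild type, was 0.08 at E18.5, 0.08 at P15 and -0.07 at P90, against -0.02, 0.01 and 0.01 over all genes. The null and wild-type arrays did not overlap for 4 keratins at E18.5 (3 higher and 1 lower, beside 19.7% of all genes), for 9 at P15 (7 higher and 2 lower, beside 16.5%) and for 2 at P90 (both higher, beside 10.5%). The F-test of equal genotype differences across the 3 ages also called 0 keratins, beside 0.256% of all genes, with 4 at an unadjusted p under 0.05 (8.33%, beside 14.5% of all genes). An age call in one genotype and not in the other is therefore not shown to differ between them.

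**Figure D4:**
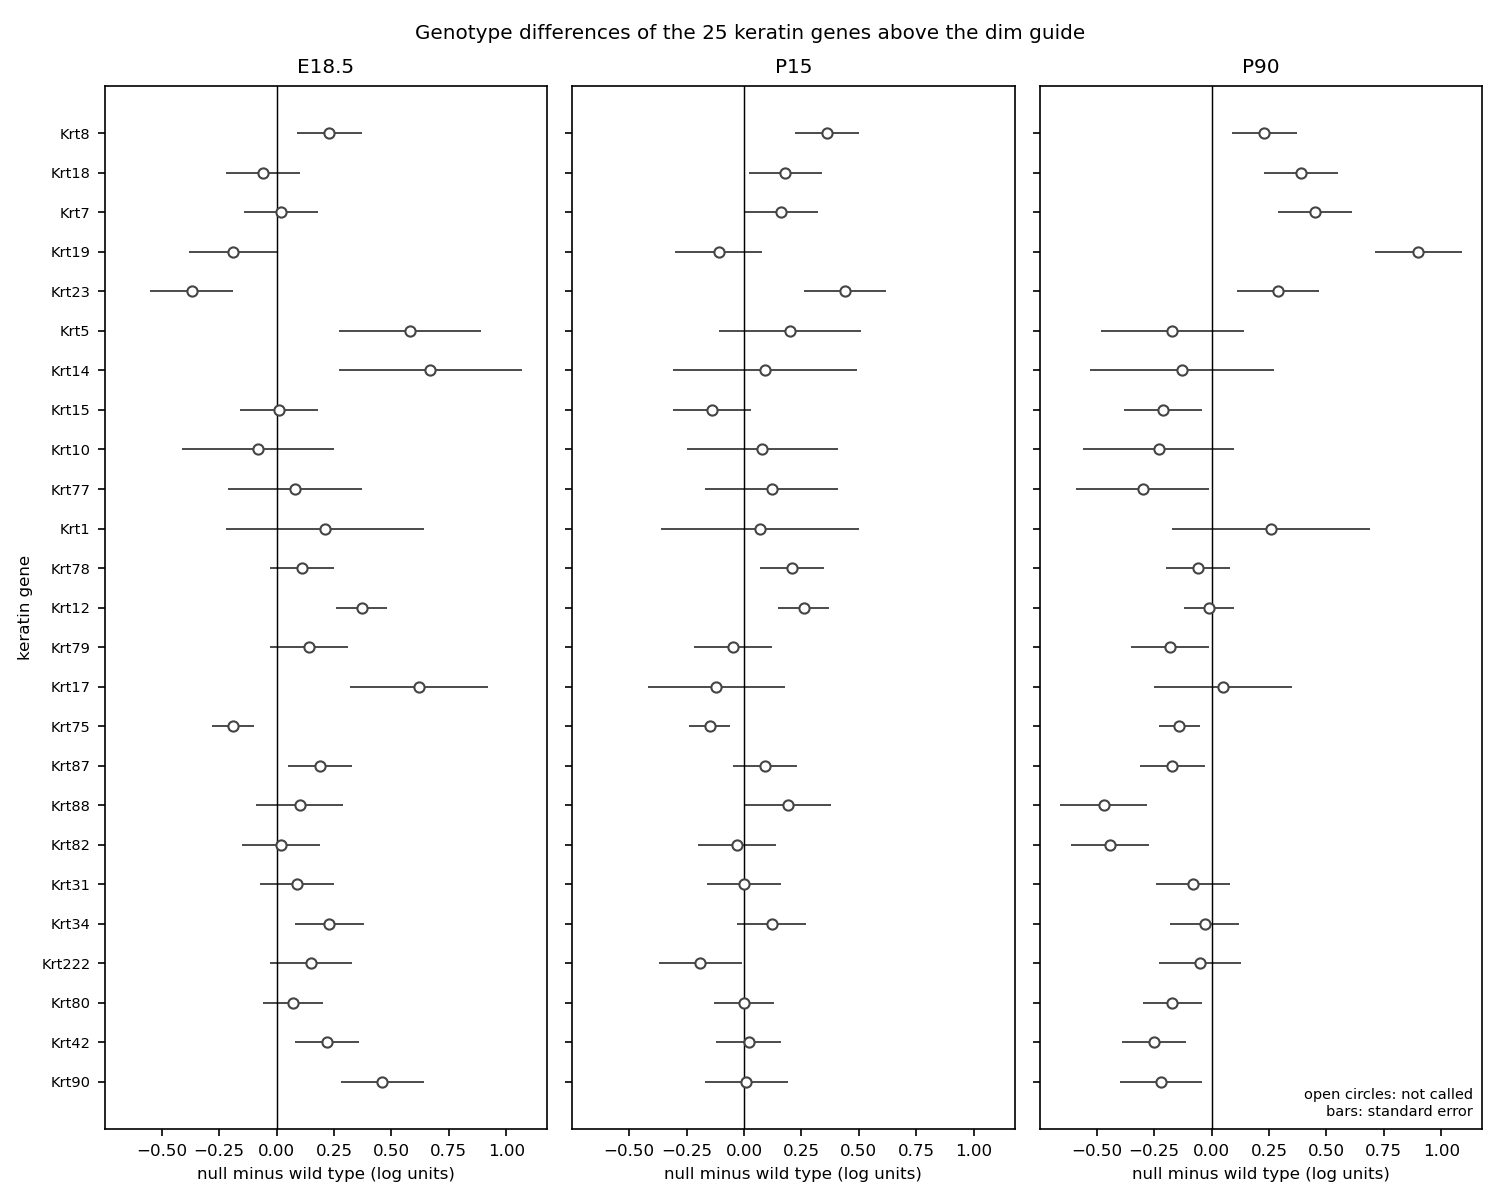
Difference null minus wild type in log units (horizontal axis, points with standard errors) of the 25 keratin genes above the dim guide at E18.5, P15 and P90. All circles are open because none was called, Krt19 at P90 lies farthest from 0 at 0.90, and Krt5, Krt14 and Krt17 have wide errors.

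Krt19 at P90 had the largest genotype difference of the 48 keratins, 0.90 ± 0.19 higher in null mice, with all 3 null arrays (4.01 to 4.37) above all 3 wild-type arrays (3.01 to 3.64). Its unadjusted p was 3.3e-04 and its adjusted p 0.063, above the threshold. It had the smallest p of the F-test among keratins too (F = 9.73, adjusted p = 0.14). The P90 difference was called without P90 null 3 (1.02, adjusted p = 0.04), without P90 wild type 3 (1.05, adjusted p = 0.022) and with only genes above the dim guide tested (adjusted p = 0.041), and its adjusted p otherwise ran up to 0.98. With the sex signal of each array as a covariate it was 0.75 (adjusted p = 0.98). Without P90 wild type 3 the F-test called 1 keratin.

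The other simple keratins had differences of the same sign at P90, at 0.23 ± 0.14 for Krt8, 0.39 ± 0.16 for Krt18, 0.45 ± 0.16 for Krt7, 0.29 ± 0.18 for Krt23 and 0.34 ± 0.21 for Krt20, none called (adjusted p 0.31 to 0.57). The median over the 6 simple keratins was 0.37 at P90, 0.27 at P15 and -0.02 at E18.5. At P90, 2 of 12 mucosal secretory genes, Reg3g and Pigr, were called higher in null mice and 3 of 12 had negative differences. The mean over the 12 was 4.17 to 4.72 in null arrays, against 3.64 to 3.84 in wild-type arrays. Reg3g measured 7.71, 6.53 and 6.27 in null arrays and 4.36, 3.63 and 4.42 in wild-type arrays, Muc5b, a gel-forming mucin, 5.45, 3.60 and 4.21 against 3.36, 3.20 and 3.40, and Scgb1a1, the club cell secretory protein, was at 0.61 to 1.53 in all 18 arrays. The 6 ciliated epithelium genes averaged 3.96 to 4.54 in null arrays and 3.74 to 4.00 in wild-type arrays. Their part in the simple keratin differences was not tested, and the sex-linked signal moved with genotype at this age.

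At E18.5 the largest differences were those of the basal keratins Krt14 and Krt5 and the appendage keratin Krt17. The other basal keratin, Krt15, was at 0.01 ± 0.17. Of the other appendage keratins, Krt79 was at 0.14 ± 0.17, Krt75 at -0.19 ± 0.09 and Krt16 at -0.14 ± 0.20. Krt14 stood at 0.67 ± 0.40, Krt17 at 0.62 ± 0.30 and Krt5 at 0.58 ± 0.31, none called, and E18.5 null 2 and 3 carried them while E18.5 null 1 lay within or below the wild-type range for Krt14 and Krt5. With the 4 arrays that stand apart left out, Krt14 was -0.33 and Krt5 -0.17, which rests on the single E18.5 null array that is left. The 6 skeletal muscle genes averaged 6.41 to 6.84 in E18.5 null arrays and 5.43 to 5.92 in wild-type arrays, and their part was not tested. Krt12 was higher in all 3 null arrays at E18.5 (3.5 to 3.97 against 3.30 to 3.43, 0.37 ± 0.11, adjusted p = 0.21) and at P15 (3.57 to 3.61 against 3.18 to 3.44, 0.26 ± 0.11, adjusted p = 0.64). All wild-type arrays of Krt12 at these ages lay below the dim guide of 3.54. Without E18.5 null 1 the E18.5 difference of Krt12 was called (0.49, adjusted p = 0.038), the 1 keratin called there, and without P90 null 3 the P90 count was 2.

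Lists of genes that work with keratins were examined beside them, and the shares of all genes called apply to each list below. For P15 minus E18.5 these were 20.3% higher and 20.5% lower in null mice, and 19.7% and 21.9% in wild-type mice. For P90 minus P15 they were 6.12% higher and 6.83% lower in null mice, and 8.08% and 9.78% in wild-type mice. Of 12 measured genes of the desmosome, the junction that anchors keratin filaments, 1 rose and 6 fell from E18.5 to P15 in null mice (median -0.38) and 1 rose and 5 fell in wild-type mice (median -0.48). Dsc3 fell by 2.49 ± 0.37 in null mice (adjusted p = 5.8e-05) and by 2.57 ± 0.37 in wild-type mice (adjusted p = 3.6e-05), and Jup, plakoglobin, rose by 0.55 ± 0.09 and 0.64 ± 0.09. Dsc2 was the 1 gene of these companion lists called between genotypes, higher in null mice at P90 (0.44 ± 0.08, adjusted p = 0.037), where its arrays measured 3.74, 3.60 and 3.74 in null mice and 3.19, 3.21 and 3.34 in wild-type mice.

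Of 26 measured epithelial regulators and adhesion genes, 2 rose and 14 fell from E18.5 to P15 in null mice (median -0.40), and 2 rose and 19 fell in wild-type mice (median -0.44). Cdh3, P-cadherin, fell by 1.82 ± 0.10 in null mice and by 1.51 ± 0.10 in wild-type mice, and Esrp1, an epithelial splicing regulator, fell by 1.0 ± 0.16 and 1.38 ± 0.16. From P15 to P90, 5 rose and 1 fell in null mice and 6 rose in wild-type mice, among them Trp63, the p63 regulator of stratified epithelium, at 0.52 ± 0.11 in null mice (adjusted p = 0.0059) and 0.48 ± 0.11 in wild-type mice (adjusted p = 0.01).

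Of 30 measured cornified envelope genes, 4 rose from P15 to P90 in null mice (median 0.17) and 9 in wild-type mice (median 0.33), and none fell. Ppl, periplakin, rose by 0.61 ± 0.11 in both genotypes. From E18.5 to P15, 2 rose and 5 fell in null mice and 2 rose and 4 fell in wild-type mice. Of 8 hair follicle regulators, 2 fell from P15 to P90 in null mice and 1 in wild-type mice, with Lef1 lower by 0.62 ± 0.09 and 0.73 ± 0.09. The 44 keratin-associated protein genes, whose products link hair keratins, had 0 calls from P15 to P90 in null mice (median 0.10) and 13 in wild-type mice, all higher (median 0.29). Their mean was 3.38 and 3.49 in P90 wild type 1 and 2, which belong to the arrays that stand apart. It was 3.05 in P90 wild type 3 and 3.07 to 3.25 in P90 null arrays. E18.5 null 2 and 3, which also stand apart, had means of 3.39 and 3.49. E18.5 null 1 had 3.12, and the E18.5 wild-type arrays had 3.12 to 3.19.

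The other cytoplasmic intermediate filament genes moved differently. Of 13, 4 rose and 4 fell from E18.5 to P15 in null mice (median 0.15), and 5 rose and 2 fell in wild-type mice (median 0.19). Gfap, the glial filament, rose by 2.41 ± 0.19 in null mice (adjusted p = 1e-07) and by 2.74 ± 0.19 in wild-type mice (adjusted p = 2.4e-08), while Vim, vimentin, fell by 0.41 ± 0.07 and by 0.39 ± 0.07. No gene of this list was called between genotypes.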

How the data were processed

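Total RNA (100 ng per array) of the vestibular organ was biotin-labelled and hybridised to Affymetrix Mouse Gene 1.1 ST arrays, per the labels' protocols. The deposited table holds log values, most likely natural log (ln), per probe set as the authors made them, and no source used here states how probe sets were summarized, whether background was corrected, or the log base. Its largest value, 10.03, corresponds to an intensity of 22700 for natural logs and 1050 for base 2. Array medians ran from 3.88 to 4.82, so the values were quantile-normalized. Arrays of a group correlated at 0.973 to 0.99, and no 2 were identical; the number of arrays limits the precision.

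Of 28853 probe sets, 21789 carried 1 gene symbol in the platform annotation, 1621 several and 5443 were unlisted, and 21698 of the single-symbol ones matched RefSeq (GRCm38.p6). The probe set with the highest mean stood for each gene. Groups followed the titles. limma 3.58.1 in R 4.3.3 fitted 6 group means over 18 arrays (lmFit and eBayes), with Benjamini-Hochberg adjustment over 19938 genes, and an F-test compared the genotype differences across ages. The procedure was tested on simulated data. Every member could be named. Array-by-array values were set for members called between genotypes, the 8 largest age calls and the 6 with the highest means, and those of Krt1, Krt4, Krt10, Krt16, Krt17 and Krt88 were added after their values were seen. Of each companion list, the 4 smallest p in a comparison could be named. The members and lists were chosen with earlier results of these data known. Alternatives were other scalings, probe-set averaging, a filter on dim genes, 2-group fits, a replicate block, a sex covariate, a term for the arrays that stand apart and leaving out each array.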

Additional observations from a re-analysis of the deposited data

How the results depend on the processing

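Genotype counts of called keratins were 0 at E18.5, at P15 and for the mean under every alternative that kept all arrays, and 1 at P90 (Krt19) with only genes above the dim guide tested. For P15 minus E18.5 the null count of 14 was 9 with a term for the 4 arrays that stand apart and 9 with them left out, an alternative chosen after seeing the data that leaves E18.5 null and P90 wild type with 1 array each, assumed to vary like the other groups. For P90 minus P15 the null count of 2 was 31 in the deposited values, and 1 with array medians subtracted, with only genes above the dim guide and with the sex covariate. The wild-type count of 8 was 34 in the deposited values, 22 with array medians subtracted, 2 with the sex covariate, 1 with only the 2 groups compared, 0 with the term and 0 with the 4 arrays left out. The difference null minus wild type at E18.5 was -0.12 with the term and -0.33 with the 4 left out for Krt14, and -0.10 and -0.17 for Krt5. Leaving out 1 array at a time gave counts of 0 to 1 for the F-test, 0 to 1 at E18.5, 0 to 2 at P90, 1 to 4 for null and 1 to 10 for wild-type P90 minus P15, 12 to 17 for null and 12 to 13 for wild-type P15 minus E18.5, and 0 at P15 and for the mean. The cause of these changes was not tested. Same-numbered arrays correlated at -0.19 to 0.24 in their deviations from group means, over 0.1 in 2 of 9 pairs. Differently numbered arrays of the 2 genotypes at an age correlated at -0.32 to 0.42, over 0.1 in 4 of 18 pairs. No pairing by number was seen, although so few pairs cannot exclude it. With a replicate block the counts were 14 (null) and 13 (wild type) for P15 minus E18.5, 2 (null) and 7 (wild type) for P90 minus P15, and 0 between genotypes, the lost call being that of Krt84. Signal over background limits the 23 dim keratins.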
